A study of Rattus norvegicus with 6 samples.

Results

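Translation initiation and elongation factors were followed in the livers of male Wistar rats after 1 feeding period on a low-protein diet. The factors were taken as every probe set with exactly 1 gene symbol that begins with Eif1 to Eif6, Eef1 or Eef2, together with Etf1 and the Gspt genes, leaving out Eef1e1. This gave 95 of 31042 probe sets and 62 of 14217 genes, among them the eIF4E-binding proteins and the eIF2 kinases. RNA from the low-protein (5P) livers was hybridised to 3 Affymetrix expression arrays and RNA from the control (15P) livers to 3 more. The rats were 6 weeks old and weighed about 150 g at purchase. They were housed singly, adapted to a pellet feed for 4 days and given the 15P diet at set hours for the next 4 days. Each rat then ate its assigned diet, 5P being matched to 15P in energy, for 8 hours, and the liver was collected after 16 hours without food. Both groups had therefore been starved for the same time, and the labels name no genetic change and no drug. The comparison asks how a single meal period with little protein altered the liver transcripts of these factors. Whether every array holds RNA of its own rat is not spelled out in the labels, so the p-values reflect the spread among these arrays alone, which may be technical.

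Initiation factors bring the methionyl initiator tRNA, the small ribosomal subunit and the capped mRNA together and then join the large subunit. Elongation factors deliver each aminoacyl-tRNA and move the ribosome along, and release factors free the finished chain at the stop codon. Amino acid supply reaches this machinery along separate branches: kinases such as GCN2 phosphorylate eIF2 and so block its recycling by eIF2B, and mTORC1 phosphorylates the 4E-binding proteins so that they let go of the cap-binding protein eIF4E. Most of this control acts on proteins and their phosphorylation, which the arrays do not measure. Many elongation factor mRNAs, like those of ribosomal proteins, start with a terminal oligopyrimidine tract, through which mTORC1 governs how well they are translated.

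The arrays themselves set the limits. Median intensity ran from 33.82 to 34.32 on the low-protein arrays and from 33.34 to 33.68 on the control arrays, and any 2 arrays correlated between 0.9891 and 0.994 over the log2 values. On the first principal component, with 36.9% of the variance, the low-protein arrays scored 17.34 to 22.59, against -26.91, -22.45 and -10.11 for control replicates 1, 2 and 3. Control replicate 3 thus stood nearest the low-protein arrays. With limma and Benjamini-Hochberg adjustment, 41 probe sets passed an adjusted p under 0.05, 11 upward (0.0354%) and 30 downward (0.0966%). Leaving out low-protein replicates 1, 2 or 3 gave 22, 16 or 18 calls, and leaving out control replicates 1, 2 or 3 gave 17, 17 or 109. The share of calls that rose was 26.8% as deposited, 16.7% with arrays centred on their medians and 40.7% with arrays centred on their 75th percentiles.

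Hepatocyte markers identified the tissue, with 7 of 8 listed genes measured. Their summed intensity was 80468 to 81288 on the low-protein arrays and 82142 to 85472 on the control arrays, without overlap, and none of the 7 passed the test. On the log2 scale Tat differed by -0.35, Cps1 by -0.23, Apoa1 by -0.19 and Fgb by -0.069. Ttr differed by -0.025, Alb by 0.002 and Serpina1 by 0.049. Red blood cell markers, 4 of 8 measured, summed to 4030 to 4294 in low-protein livers and 2845 to 3100 in controls. Of these, Hbb differed by 0.48 and Alas2 by 0.43 on the log2 scale, Slc4a1 by 0.14 and Epb42 by -0.06, none passed the test and none had 0 intensity. Cholangiocyte markers, 4 of 5 measured, summed to 200 to 279 in low-protein livers and 252 to 411 in controls. On the log2 scale Epcam differed by -0.55, Krt19 by -0.39, Spp1 by -0.006 and Krt7 by 0.13, and none passed the test. The hepatocyte and red blood cell sums did not overlap between the diets and the cholangiocyte sums did. The part of any of these in the results that follow was not tested. The 3' minus 5' difference of the array's RNA integrity controls, on the log2 scale, averaged 0.436 in low-protein livers and 0.332 in controls for GAPDH, and 1.404 in low-protein livers and 1.201 in controls for hexokinase. For beta-actin it averaged 1.53 in low-protein livers and 1.491 in controls, and its groups overlapped. The part of these differences in the probe set results was not tested either. In whole liver, fewer cells of a type and less RNA per cell cannot be told apart.

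No translation factor changed past the threshold: 0 of the 95 probe sets passed in limma at an adjusted p under 0.05, where 0.132% of all probe sets did, and 0 of the 62 genes passed by their brightest probe set, where 0.183% of all genes did, 0.0633% upward and 0.12% downward. The factor nearest to it was Eef1b2 (adjusted p = 0.0739), and all differences among the brightest probe sets of the genes lay between -0.61 and 0.53 on the log2 scale. At an unadjusted p under 0.05, 17 probe sets were higher and 11 lower, where all probe sets gave 7.83% higher and 7.58% lower. Of the 62 genes, each read by its brightest probe set, 14 were higher and 6 lower at that level, against 8.41% higher and 8.02% lower of all genes. Taken by sign alone, 44 were higher and 18 lower, with a median log2 fold change of 0.095 beside 0.031 for all genes, and 71% of the factors were higher beside 57.6% of all genes. Without control replicate 3 the median of the factors was 0.111. The arrays of the 2 diets did not overlap for 41.9% of the factors, 18 genes with low protein above and 8 with low protein below. Over all genes this held for 22.9%, with 12.8% above and 10.1% below. By probe set, 23 of 95 factors lay above and 11 below, where 12.5% and 9.12% of all probe sets did.

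**Figure D1:**
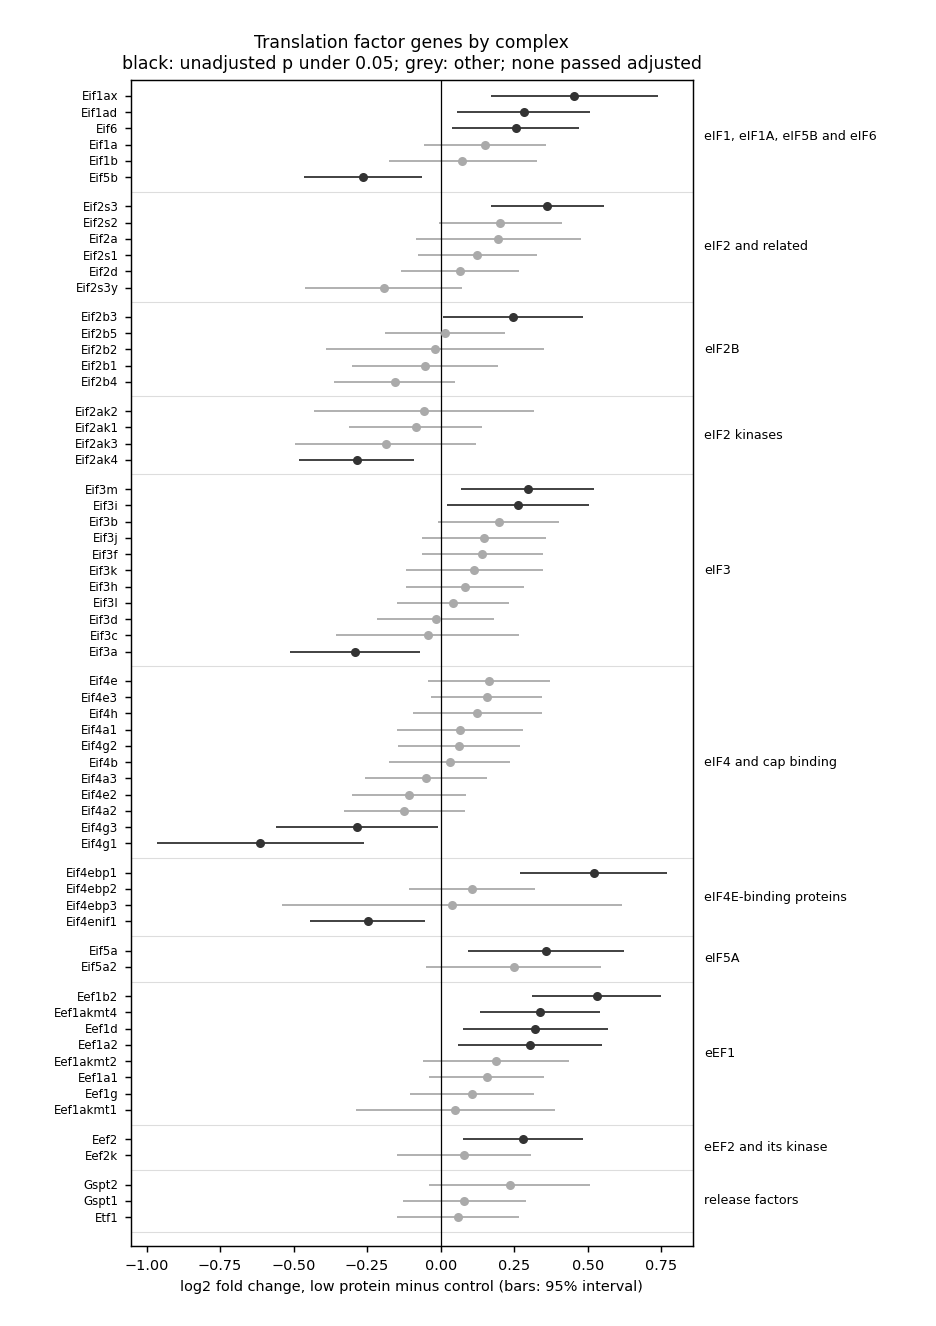
Log2 fold change of each of the 62 translation factor genes (x axis, low protein minus control, brightest probe set, bars the 95% interval of the moderated fit), grouped by complex down the page. The 14 black points right of 0 and 6 left of it have an unadjusted p under 0.05. All 8 genes of the eEF1 group, methyltransferases included, lie right of 0 and all 4 eIF2 kinases left of it.

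The groups of factors did not all lean the same way. The 8 genes of the eEF1 group, which include lysine methyltransferases of eEF1A, were all higher, with a median of 0.25. The 4 eIF2 kinase genes were all lower, with a median of -0.14. These signs also held with median centring, 75th-percentile centring and quantile normalization, which rescale whole arrays. They did not all hold across single arrays and probe sets. Eef1akmt1 had the smallest eEF1 value, 0.050 (SE 0.148), and its low-protein replicates 1 and 2, at 6.22 and 6.15, lay below the control mean of 6.27. A dim second probe set of Eef1g had -0.29, and the kinase gene Eif2ak2 turned to 0.038 without low-protein replicate 2. The 11 genes of eIF4 and cap binding were split, 6 higher and 5 lower, with a median of 0.031. Array by array, the eEF1 median stood 0.15, 0.23 and 0.32 above the control mean on low-protein replicates 1, 2 and 3, against 0.036, 0.024 and -0.065 on control replicates 1, 2 and 3. All 3 low-protein arrays lay above all controls for eEF1, as they did for all 62 factors together, where the medians were 0.029, 0.15 and 0.14 on the low-protein arrays and -0.003, 0.011 and -0.025 on the controls. The median of all 14217 genes separated in the same way, at 0.012, 0.017 and 0.053 on the low-protein arrays and 0.008, -0.012 and 0.002 on the controls. The medians of the eIF1 and eIF1A group, eIF2, eIF3, eIF5A, eEF2 and the release factors likewise lay above all controls. Those of the eIF2 kinases overlapped, at -0.23, -0.19 and -0.039 on the low-protein arrays and 0.082, -0.023 and -0.069 on the controls.

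**Figure D2:**
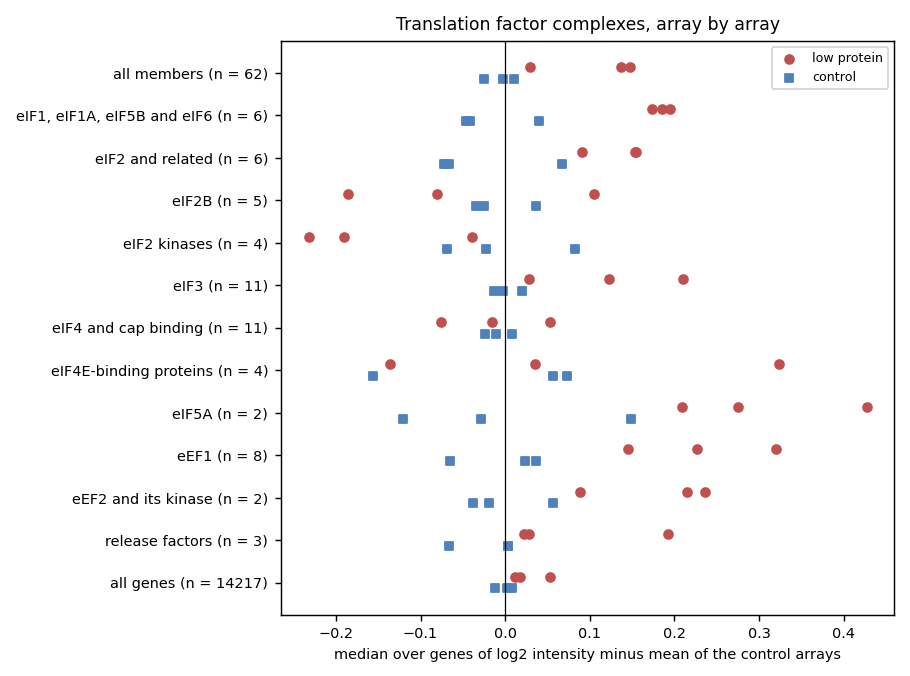
Median over the genes of each complex of the log2 intensity minus the mean of the control arrays (x axis), with 1 point for each array and the number of genes beside each name. Low-protein arrays (red circles) lie right of the controls (blue squares) for eEF1, from 0.15 to 0.32 against -0.065 to 0.036, while the arrays of the 2 diets overlap for eIF2B and for eIF4 and cap binding.

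Among the factors that prepare the start codon, Eif1ax had the largest difference. Eif1ax, an X-linked gene for eIF1A, which steadies the scanning small subunit, read 8.60, 8.83 and 8.73 (log2 intensity) on the low-protein arrays and 8.46, 8.30 and 8.04 on the control arrays. The groups did not overlap, and the log2 fold change was 0.46 (SE 0.124, limma adjusted p = 0.159). Eif1a, the other gene of that protein, had 0.15 (SE 0.091), its arrays overlapped, and its 3 dimmer probe sets had -0.024, -0.21 and -0.15. Eif1ad, which encodes a protein with an eIF1A-like domain, averaged 8.34 ± 0.06 in low-protein livers and 8.05 ± 0.14 in controls (SD, n = 3 each). Eif1b, a paralog of the start-codon fidelity factor eIF1, had a log2 fold change of 0.074.

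Eif5b went the other way. It encodes the GTPase that joins the large subunit, and it read 7.81, 7.99 and 7.88 on the low-protein arrays and 8.17, 8.18 and 8.12 on the control arrays. All low-protein arrays lay below all controls, with a log2 fold change of -0.26 (SE 0.087, limma adjusted p = 0.214). A second probe set of nearly the same brightness had -0.42 (SE 0.123) and the dimmest had 0.003 (SE 0.092). Eif6, which keeps free large subunits from joining early, averaged 9.48 ± 0.13 in low-protein livers and 9.22 ± 0.04 in controls (SD, n = 3 each), again without overlap but in the opposite direction to Eif5b.

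The 3 subunits of eIF2, the GTPase that carries the initiator tRNA, were each higher in low-protein livers, though none passed. Eif2s3, the gamma subunit that binds GTP and the tRNA, read 8.15, 8.17 and 8.19 on the low-protein arrays and 7.88, 7.81 and 7.74 on the control arrays. The 3 low-protein arrays differed among themselves by far less than they differed from the controls, and the log2 fold change was 0.36 (SE 0.084, limma adjusted p = 0.114). Eif2s3y, the Y-linked copy, had -0.19 (SE 0.117), the only negative value among the 6 genes of this group, and a probe set assigned to both copies and therefore not counted as a member had 0.24 (SE 0.133). Eif2s2, the beta subunit, averaged 10.25 ± 0.09 in low-protein livers and 10.05 ± 0.07 in controls (SD, n = 3 each). Eif2s1, the alpha subunit that the stress kinases phosphorylate, had a difference of 0.13 (SE 0.088) with overlapping arrays. Eif2a and Eif2d, which encode other proteins able to deliver tRNA to the ribosome, had 0.196 and 0.065.

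The kinases that phosphorylate eIF2 were all on the lower side, and 1 of 4 was free of overlap, or 25%, near the 22.9% of all genes. Eif2ak4, or GCN2, the kinase that senses uncharged tRNA when amino acids run short, read 6.02, 6.17 and 6.03 on the low-protein arrays and 6.35, 6.39 and 6.34 on the control arrays. Its transcript was lower on every low-protein array, with a log2 fold change of -0.29 (SE 0.086, limma adjusted p = 0.186). Eif2ak3, or PERK, the sensor of endoplasmic reticulum stress, had -0.19 (SE 0.135), and -0.073 without low-protein replicate 1 or -0.081 without control replicate 1. Eif2ak1, the haem-regulated kinase, had -0.085 (SE 0.098), and -0.033 without low-protein replicate 2, -0.149 without low-protein replicate 3 or -0.035 without control replicate 1. Eif2ak2, the kinase activated by double-stranded RNA, had -0.058 (SE 0.164), which was -0.207 without control replicate 3 and turned to 0.038 without low-protein replicate 2 and 0.061 without control replicate 2. The arrays of the 2 diets overlapped for these 3 kinases.

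The exchange factor eIF2B, which reloads eIF2 with GTP and is inhibited by phosphorylated eIF2, showed no common direction among its 5 subunits. Eif2b3, the gamma subunit, averaged 6.97 ± 0.07 in low-protein livers and 6.73 ± 0.16 in controls (SD, n = 3 each) without overlap. Eif2b4, the delta subunit, was below its controls on every low-protein array with a log2 fold change of -0.16 (SE 0.090). Eif2b5, the catalytic epsilon subunit, differed by 0.015, with a 95% interval from -0.19 to 0.22; its sign turned with median centring, with array weights and without low-protein replicate 3 or control replicate 3. Eif2b1 and Eif2b2, of the regulatory core, had -0.054 and -0.020. The median of the 5 was -0.020 as deposited and 0.029 with 75th-percentile centring.

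The scaffold eIF3, which holds the small subunit and recruits mRNA, had 8 of its 11 measured subunit genes higher and 3 lower, with a median of 0.11, while 10 were higher with 75th-percentile centring. Eif3m read 10.32, 10.35 and 10.57 on the low-protein arrays and 10.05, 10.16 and 10.14 on the control arrays, a log2 fold change of 0.30 (SE 0.099, limma adjusted p = 0.218). Eif3i and Eif3b, partners in one module of the complex, had 0.26 (SE 0.105) and 0.197 (SE 0.090), each with all low-protein arrays above all controls. Eif3j, Eif3f, Eif3k, Eif3h and Eif3l lay between 0.042 and 0.146 by their brightest probe sets and overlapped. Dimmer probe sets of Eif3k, Eif3h, Eif3l and Eif3j had 0.31 (SE 0.123), 0.29 (SE 0.117), 0.105 (SE 0.126) and -0.12 (SE 0.155). Eif3d and Eif3c lay at -0.017 and -0.043.

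Eif3a, the largest subunit and the core on which the others assemble, was the exception within eIF3. It read 9.94, 10.04 and 9.77 on the low-protein arrays and 10.17, 10.22 and 10.23 on the control arrays. Every low-protein array lay below every control, and the log2 fold change was -0.29 (SE 0.096, limma adjusted p = 0.214). Its second probe set had -0.72 (SE 0.131, adjusted p = 0.0772), the most negative value of the 95 probe sets. Both probe sets of Eif3a were thus lower while most of its partners were on the other side of 0.

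In the cap-binding complex 2 scaffold genes stood lower by their brightest probe sets, though not by every probe set, and the cap-binding gene itself did not. Eif4g1, the scaffold that joins the cap-binding protein to eIF3, read 8.55, 8.57 and 8.01 on the low-protein arrays and 8.99, 9.10 and 8.88 on the control arrays by its brightest probe set. Low-protein replicate 3 was the lowest, all 3 lay below the controls, and the log2 fold change was -0.61 (SE 0.154, limma adjusted p = 0.138). The value was -0.43 without low-protein replicate 3 and reached -0.71 without low-protein replicate 2, and averaging its 4 probe sets gave -0.27. A probe set of nearly the same brightness had 0.014 (SE 0.116). Eif4g3, a second scaffold, had -0.285 (SE 0.120) with overlapping arrays, and its dim second probe set had 0.11. Eif4e, which binds the cap, had 0.165 (SE 0.091), and its 3 probe sets stood close together. Eif4e2, a homolog linked to repression, and Eif4e3, a further homolog, had -0.11 and 0.156, each without overlap between the diets. A second, slightly dimmer probe set of Eif4e3 had -0.14 (SE 0.199) with overlapping arrays.

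The remaining genes of this group are helicases, their cofactors and a further scaffold. Eif4a1 and Eif4a2, the helicase that unwinds the leader of the mRNA, had 0.065 and -0.12, and all low-protein arrays lay below all controls for Eif4a2. A dimmer probe set of Eif4a2 had -0.48 (SE 0.188), with overlapping arrays. Eif4a3, a helicase of the exon junction complex, had -0.050. The helicase cofactors Eif4b and Eif4h had 0.031 and 0.125. Eif4g2, a scaffold that does not bind the cap protein, had 0.062 by its brightest probe set.

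Of the proteins that hold eIF4E, 2 of 4 genes were free of overlap, in opposite directions, where 12.8% of all genes lay above and 10.1% below. Eif4ebp1, which encodes the translational repressor 4E-BP1 and is a target of ATF4 in mouse pancreatic beta cells, read 8.62, 8.80 and 8.65 on the low-protein arrays and 7.98, 8.27 and 8.25 on the control arrays. The groups did not overlap, and the log2 fold change was 0.52, or 1.43-fold (SE 0.109, 95% interval 0.27 to 0.77), with a limma adjusted p = 0.0976. Over 17 alternatives its value stayed between 0.43 and 0.57 and its adjusted p between 0.0766 and 0.237. Eif4ebp2 had 0.11 (SE 0.093). Eif4ebp3 read 10.77, 11.16 and 11.76 on the low-protein arrays and 10.83, 11.24 and 11.50 on the control arrays, so its spread within a diet exceeded the 0.040 between diets, and its sign turned without low-protein replicate 3 or control replicate 1. Eif4enif1, which carries eIF4E into the nucleus, averaged 7.29 ± 0.07 in low-protein livers and 7.54 ± 0.05 in controls (SD, n = 3 each) without overlap.

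**Figure D3:**
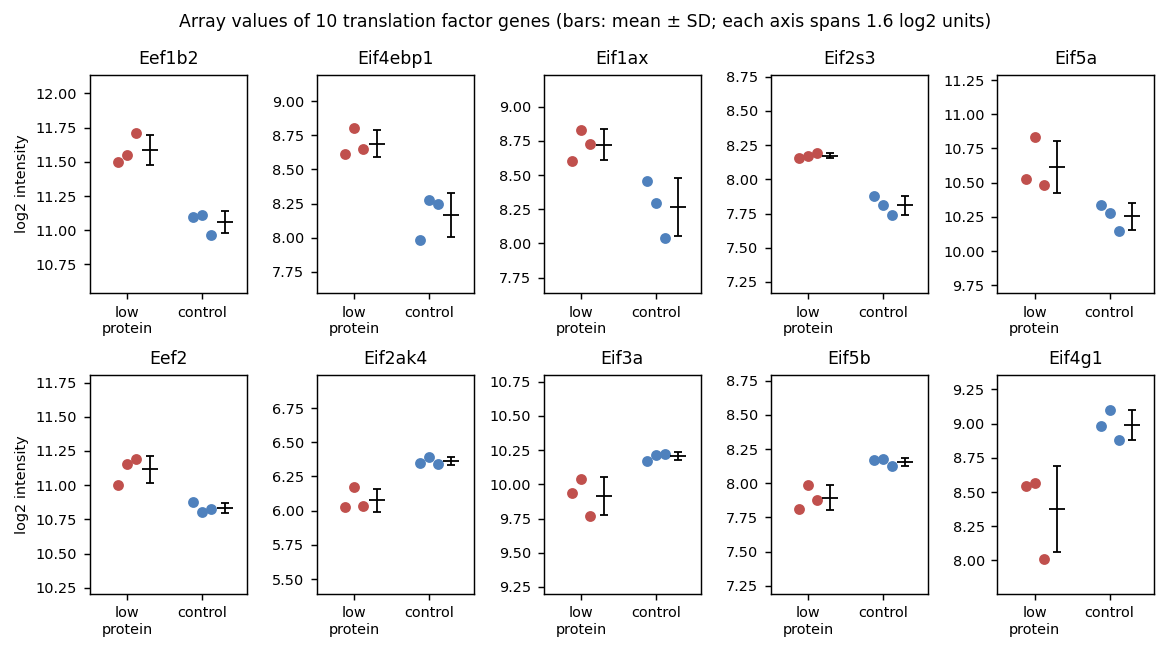
Log2 intensity of 10 translation factor genes on each array (points; low protein red, control blue; bars mean ± SD, n = 3 each), every panel spanning the same height. The low-protein points lie above the controls in the first 6 panels, such as Eef1b2 at 11.50 to 11.71 against 10.97 to 11.11, and below them in the last 4, such as Eif2ak4 at 6.02 to 6.17 against 6.34 to 6.39. All 10 genes shown are among those without overlap, which were 41.9% of the 62 factors and 22.9% of all genes.

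By their brightest probe sets, all 8 genes of the eEF1 group, the eEF1A methyltransferases among them, were on the higher side. So were both genes of the eEF2 group, Eef2 and its kinase. Eef1b2, the exchange factor that reloads eEF1A with GTP, read 11.50, 11.55 and 11.71 on the low-protein arrays and 11.10, 11.11 and 10.97 on the control arrays. That is a log2 fold change of 0.53, or 1.44-fold (SE 0.095, 95% interval 0.31 to 0.75), with a limma adjusted p = 0.0739 that ranged from 0.0525 to 0.191 over the 17 alternatives. Eef1d, another exchange subunit, averaged 9.86 ± 0.17 in low-protein livers and 9.53 ± 0.07 in controls (SD, n = 3 each). Eef1g, the structural subunit of that complex, had 0.11 (SE 0.093) with overlapping arrays, and its dim second probe set had -0.29.

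The most abundant tRNA carrier differed less. Eef1a1, the abundant eEF1A of liver, read 13.02, 13.03 and 13.01 on the low-protein arrays and 12.90, 12.77 and 12.93 on the control arrays, a difference of 0.157 (SE 0.086, limma adjusted p = 0.419) without overlap. Eef1a2, the form typical of muscle and neurons, was dim here at a mean of 6.16 ± 0.09 in low-protein livers and 5.85 ± 0.16 in controls (SD, n = 3 each). Its dimmer second probe set had a difference of 0.082 (SE 0.085) with overlapping arrays. The lysine methyltransferases of eEF1A, Eef1akmt4, Eef1akmt2 and Eef1akmt1, had 0.34 (SE 0.089), 0.19 (SE 0.108) and 0.050 (SE 0.148), and only Eef1akmt4 was free of overlap.

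Eef2, the translocase that moves the ribosome along the mRNA, read 11.004, 11.16 and 11.19 on the low-protein arrays and 10.88, 10.81 and 10.83 on the control arrays. The log2 fold change was 0.28 (SE 0.089, limma adjusted p = 0.202), and every low-protein array exceeded every control. Eef2k, the kinase that inhibits eEF2, had 0.079 (SE 0.099) by its brightest probe set. A dimmer probe set of Eef2k read 5.33, 5.29 and 5.40 on the low-protein arrays and 5.72, 5.77 and 5.79 on the control arrays, or -0.42 (SE 0.083, adjusted p = 0.0858), and the other 2 had -0.24 and 0.115. The sign for Eef2k therefore turned with the probe set chosen, to -0.117 when its probe sets were averaged.

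Eif5a, the factor that carries hypusine and helps ribosomes past stalling sequences, read 10.53, 10.83 and 10.48 on the low-protein arrays and 10.34, 10.28 and 10.15 on the control arrays. Its log2 fold change was 0.36 (SE 0.116, limma adjusted p = 0.207), without overlap. Eif5a2, its paralog, was near the bottom of the intensity range at a mean of 3.05 in low-protein livers and 2.80 in controls. The release factors were on the higher side, though none passed: Etf1, which reads the stop codon, had 0.059 (SE 0.091), its GTPase partner Gspt1 had 0.081 (SE 0.091), and the paralog Gspt2 had 0.235 (SE 0.120), all with overlapping arrays.

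Promoter sequence around the annotated transcription start was read for the 57 member genes found in the RefSeq table of build GRCr8; the remaining 5 were Eif4ebp1, Eif4e3, Eif3h, Eef1d and Eif4b. A pyrimidine run was taken as a C followed by at least 6 letters that are C or T. It was sought on the strand that has the sequence of the mRNA, within 20 bases before or after the start. It occurred in 17 of 60 member promoters, or 28.3%, and in 17.6% of all 33469 promoters. The shares of all promoters, here and below, cover the RefSeq table whether or not a gene was measured on the arrays. Terminal oligopyrimidine tracts are the known shared feature of elongation factor mRNAs, so windows with such a run are shown for 6 higher genes, the initiation factors Eif2s3, Eif3m and Eif3i included. Each window has 20 bases on either side of the start, and capitals mark the longest run (Eef1b2 and Eif3i each hold another, shorter run in lower case). The capital runs of Eef2 and Eif3i start at -18 and -11 and end before the annotated start. Those of Eef1a1, Eef1b2, Eif2s3 and Eif3m start at -1, 3, 5 and 6. Whether any of the 6 runs is a terminal tract in liver was not tested.
Eef1b2, chr9:72074071-72074110, + strand: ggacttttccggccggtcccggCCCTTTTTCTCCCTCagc
Eef1a1, chr8:88225050-88225089, - strand: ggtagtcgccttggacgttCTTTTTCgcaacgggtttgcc
Eef2, chr7:9189219-9189258, - strand: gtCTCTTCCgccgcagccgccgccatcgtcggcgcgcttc
Eif2s3, chrX:62933680-62933719, - strand: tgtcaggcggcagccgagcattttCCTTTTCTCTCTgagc
Eif3m, chr3:111897174-111897213, - strand: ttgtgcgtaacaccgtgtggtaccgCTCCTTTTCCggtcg
Eif3i, chr5:147226891-147226930, - strand: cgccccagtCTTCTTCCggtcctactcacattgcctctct

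The longest run of the 6, at 15 letters, belonged to Eef1b2, and that of Eif2s3 had 12. Higher and lower genes both occurred with and without a run. Lower genes with a run were Eif4g3 (not in each of its promoters), Eif2s3y and Eif3d. Eif1ax and Eif5a were among the 25 higher genes without a run. The windows of 4 lower genes, chosen among those with no run, show what its absence looks like.
Eif3a, chr1:269919006-269919045, - strand: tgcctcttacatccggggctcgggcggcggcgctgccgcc
Eif4g1, chr11:93746348-93746387, - strand: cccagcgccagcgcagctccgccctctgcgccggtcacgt
Eif5b, chr9:47718686-47718725, + strand: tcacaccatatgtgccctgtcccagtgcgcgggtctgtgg
Eif2ak4, chr3:125810187-125810226, + strand: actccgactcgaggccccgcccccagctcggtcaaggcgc

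Of the 17 member genes with a run, 14 were on the higher side, their median difference being 0.14 in log2 units. Of the 40 without one 25 were higher, with a median of 0.065. Among all genes 57.6% were higher, with a median of 0.031. These 10 windows were picked with the values known, the annotated start may lie some bases from the one used in liver, and a match describes letters only. The amino acid response core TGATGNAA, on either strand of the 300 bases from 250 before to 50 after the start, occurred in 1 member promoter, that of Eif2s2, or 1.67%, and in 3.98% of all promoters. Eif4ebp1, which has no promoter in the RefSeq table, could not be searched for it.

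Probe sets of the same gene did not always tell the same story, and this touches the genes with the most negative values. Of the 62 genes, 24 had more than 1 probe set, and in 10 of them the probe sets had opposite signs. The difference between the brightest probe set and each other probe set of its gene was fitted with limma over all 6609 such pairs. Of the 33 pairs within translation factors 0 passed an adjusted p under 0.05, where 0.0454% of all pairs did, and 8 had an unadjusted p under 0.05, where 12.9% of all pairs did. For Eif4g1 the brightest probe set stood at -0.61, and the other 3 at 0.014, -0.45 and -0.043. Against the first of these, which was nearly as bright, the difference was -0.63 (SE 0.169, limma adjusted p = 0.186). Against the last it was -0.57 (SE 0.118, limma adjusted p = 0.138). For Eif4g2 a second probe set, with 9.76, 9.80 and 9.68 on the low-protein arrays and 9.42, 9.47 and 9.16 on the control arrays, gave 0.398 (SE 0.105), against 0.062 for the brightest. Eif4g3 had 0.11 by its dim second probe set, against -0.285. For Eif4e, in contrast, the 3 probe sets had 0.165, 0.156 and 0.17.

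**Figure D4:**
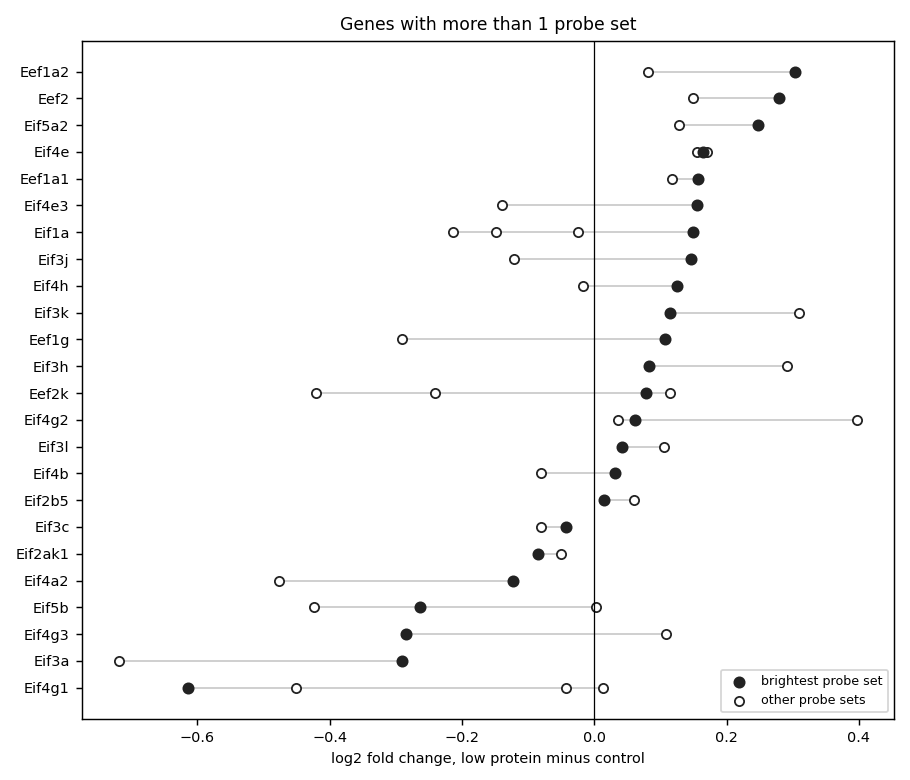
Log2 fold change (x axis, low protein minus control) of every probe set of the 24 translation factor genes that have more than 1, with the brightest filled and the others open. Eif4g1 runs from -0.61 to 0.014 and Eef2k from -0.42 to 0.115, while the points of Eif4e and Eef1a1 lie close together.

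Near-identical copies limit some of these values. The RefSeq table lists 20 pseudogenes named for Eef1a1, 16 for Eef1g, 10 for Eif4e and 8 for Eif4a1, and transcripts of any of them that matched the probes could not be told apart from the parent gene. Probe sets assigned to 2 symbols were left out by the rule. One of these, shared by Eif3e and Eif3el1, differed by 0.22 on the log2 scale (SE 0.086), and the 3 shared by Eif5, the GTPase activator of eIF2, and Eif5-ps1 had -0.15, 0.028 and -0.017.

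The wider translational control pathway was read from a list of 54 other genes, 45 of them measured, and 1 rose and 1 fell. At an unadjusted p under 0.05, 8 were higher (17.8%, beside 8.41% of all genes) and 4 lower (8.89%, beside 8.02% of all genes). The adjusted threshold was passed by 0.183% of all genes. Of the 45, 26 were higher (57.8%, beside 57.6% of all genes) and 19 lower, with a median of 0.076. Atf5, a transcription factor of the amino acid response, read 10.97, 10.93 and 10.75 on the low-protein arrays and 9.31, 9.26 and 8.95 on the control arrays. It rose by 1.71 (SE 0.120, limma adjusted p = 0.00682) and passed under all 17 alternatives. Mknk2, the kinase MNK2 that phosphorylates eIF4E, read 8.27, 8.27 and 8.21 on the low-protein arrays and 8.83, 8.997 and 8.97 on the control arrays. It fell by 0.68 on the log2 scale (SE 0.087, limma adjusted p = 0.0414), and its paralog Mknk1 had -0.25 (SE 0.085, adjusted p = 0.226). The Mknk2 call was lost in each fit that left out 1 array (adjusted p = 0.114, 0.0898 and 0.128 without low-protein replicates 1, 2 and 3, and 0.0917, 0.125 and 0.0543 without control replicates 1, 2 and 3), with 75th-percentile centring (0.0525), with quantile normalization (0.0525) and with the replicate block (0.12), while its value stayed between -0.73 and -0.63.

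Other genes of that list did not pass. Trib3, a pseudokinase induced by ATF4, had 0.78 (SE 0.157, limma adjusted p = 0.0899), Dph3, which helps make the diphthamide of eEF2, had 0.34 (SE 0.090), and the ribosomal protein Rps6, a substrate of the S6 kinases, had 0.33 (SE 0.092). Mtor had -0.14 (SE 0.099). Atf4 had 0.076 (SE 0.192), with a value of -0.093 without low-protein replicate 2 and -0.020 without control replicate 2. The 6 measured mitochondrial translation factors of the list had a median of 0.059, and 0 of them passed in limma, with 1 at an unadjusted p under 0.05 (16.7%, beside 16.4% of all genes).

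Beside related gene families the translation factors lay between ribosomal proteins and tRNA synthetases in their median difference. The 48 cytosolic ribosomal protein genes, paralogs included, had a median of 0.28 with 44 higher (91.7%). The 62 translation factors had 0.095 with 44 higher (71%). The 30 aminoacyl-tRNA synthetase genes, mitochondrial ones included, had 0.064 with 17 higher (56.7%). Among all genes the median was 0.031 and 57.6% were higher, so the synthetases were near all genes in that share. No gene of the 3 families passed the adjusted threshold, and the difference between the families was not tested.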

How the data were processed

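The authors deposited 1 intensity per probe set and array, processed by RMA, per the submitters' processing notes (its software is not given in the sources used here). The method adjusts background and normalizes between arrays, so a change shared by most genes would be removed. Values ran from 3.61 to 21668, were read as linear, and log2 was taken; depth does not apply to arrays, and 3 arrays per diet limit the precision.

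Of 31099 probe sets, 57 controls were left out and 31042 fitted with limma 3.58.1 in R 4.3.3 (lmFit, eBayes, 2-sided, Benjamini-Hochberg over all probe sets, threshold 0.05; 4 residual and 8.38 total degrees of freedom). Fold changes are low protein minus control; SEs are moderated. Symbols came from the platform annotation: 20826 probe sets had 1, 436 several and 9780 none here; all 62 member gene IDs matched RefSeq and 0 symbols changed. Genes are read by their probe set of highest mean. The named genes are members with a passing probe set, members at an unadjusted p under 0.05 by the brightest probe set, the 2 of smallest p per complex, the 4E-binding proteins, the eIF2 kinases, Eef2k, Eif2s1, Eif2b5 and Eef1a1, and members with probe sets of opposite sign each at an unadjusted p under 0.05; in the pathway list Atf4, Atf5, Mtor and the 6 of smallest p. Further members were named with their values already seen. Members, lists and tests were chosen with earlier results of these data known. Alternatives changed the prior variance, scaling, filter, weights, block, arrays and probe set choice; the fit of probe set pairs was added after seeing the data. The procedure was tested on simulated data. Same-numbered arrays of the 2 diets were checked for pairing. Figures were drawn with matplotlib 3.10.9.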

Additional observations from a re-analysis of the deposited data

Results flagged for a closer look

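The RNA integrity control probe sets, which no comparison uses, differed slightly between the diets. The 3' minus 5' difference on the log2 scale was 0.38, 0.42 and 0.52 for GAPDH on the low-protein arrays and 0.27, 0.37 and 0.36 on the control arrays, a difference of 0.104. For hexokinase it was 1.48, 1.35 and 1.38 on the low-protein arrays and 1.24, 1.06 and 1.30 on the control arrays, a difference of 0.203. All low-protein arrays lay above all controls for both, as 12.5% of all probe sets did. For beta-actin the difference between the diets was 0.040 and the arrays overlapped. Whether these differences bear on the probe sets of Eif3a, Eif4g1 or Eif5b was not tested.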

How the results depend on the processing

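No translation factor probe set passed under any of 15 alternatives at the level of probe sets, the smallest adjusted p running from 0.0525 (75th-percentile centring) to 0.176 (without low-protein replicate 3). The median log2 fold change of the 62 genes was 0.143 with 75th-percentile centring and ran from 0.074 to 0.14 over the arrays left out. Over all probe sets the count of 41 became 103 with a robust prior variance, 78 with median centring, 102 with array weights and 6 with the replicate block, and ran from 16 to 109 over the arrays left out. The pathway list had 1 call, Atf5, in place of 2 with 75th-percentile centring, with quantile normalization, with the replicate block and without any 1 array. Of 711 values of named genes under the 17 alternatives, 12 changed sign. Eif2b5 had -0.012 with median centring, -0.008 with array weights and -0.031 to 0.041 over the arrays left out. Over the arrays left out Eif4ebp3 ran from -0.224 to 0.269, Eif2ak2 from -0.207 to 0.061 and Atf4 from -0.093 to 0.302. Eef2k had -0.117 by the mean of its probe sets and -0.241 by its probe set of largest SD. The cause of these changes was not tested. The replicate numbers gave no sign of pairing: deviations from the group mean correlated at -0.087, -0.027 and -0.102 for same-numbered arrays. With 3 arrays per diet, whose deviations sum to 0 within a diet, this check cannot exclude pairing. With 3 arrays per diet, dim genes such as Eif5a2, which the filters at the 25th percentile and the median removed, carry little information.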
